A study of Mus musculus with 6 samples.

Results

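Type I interferons are secreted cytokines that warn cells of virus infection. They bind a receptor built of the chains IFNAR1 and IFNAR2, whose kinases activate STAT2 among other factors. STAT2 and IRF9 take part in a complex, ISGF3, that binds interferon-stimulated response elements (ISREs) in promoters and switches on a large set of antiviral genes. Dendritic cells make and answer these cytokines, and the genes described here include the receptor, transcription factors of the pathway, sensors of viral RNA and effector proteins. They were chosen as a list of 34 genes, each represented by the probe set that carried its symbol alone and had the highest mean over all arrays. Of the 34, 32 had such a probe set among 19938 genes in all. Isg15, the ubiquitin-like modifier, was left out because its probe set was annotated with several symbols, and Ifi44 had no probe set listed.

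The series concerns dendritic cells grown from the marrow of female C57BL/6J mice that had been injected with 2000000 bone marrow cells of the congenic strain B6.SJL-Ptprca, and its title asks about glycolysis in such cells. In the naive-donor group (titled Control) the donor mouse was naive. In the UV-donor group the donor had been UV irradiated, with up to 8 kJ/m2 of broadband light on shaved back skin. Mice were 6 to 10 weeks old at irradiation unless otherwise stated, and the sources used here tie no age to the naive donors or the recipients. Both groups were cultured for 5 days with GM-CSF and IL-4 at 10 ng/ml each and enriched to above 95% CD11c+ cells with magnetic beads, with 3 arrays per group. The labels used here do not say whether the recipients' own marrow cells were removed, how long after injection marrow was taken, or whether the 3 preparations came from separate mice, so the spread behind each p-value is that of these preparations alone and can be technical. No array was made from cells treated with interferon.

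The medians of the arrays ran from 7.16 to 7.23 (log2 signal), and arrays correlated at 0.995 to 0.997 within groups. Of the dendritic cell markers, Itgax lay at 13.71 to 13.79 and Cd74 at 13.49 to 13.63. Itgax encodes CD11c, by which the cells were enriched, so its level does not check the dendritic cell label. Of 10 dendritic cell markers, Flt3 alone was dim, a term used here for a gene whose mean lay below 6.58, the 30th percentile of gene means. Dim were also 3 of 5 B cell, 3 of 5 eosinophil and 4 of 7 T and NK cell markers. None of the 10 macrophage, 12 neutrophil and 6 monocyte markers was dim, and the macrophage genes Csf1r and Mrc1 lay at 12.54 to 12.65 and 12.50 to 12.72.

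Many interferon response genes, though not all, carry a shared promoter element, and the members can be viewed by it. In the RefSeq promoter table (GRCm38.p6), 25 of the 34 members had a window running from 250 bases before the annotated start of the gene to 50 bases after it. The ISRE core, searched as GAAA, any 2 bases and GAAA, and on the other strand as TTTC, any 2 bases and TTTC, lay in a window of 11 of these 25 genes (44%), against 3.99% of all 27025 genes with windows. The core of the gamma-activated sequence (GAS), TTCNNNGAA, which reads the same on both strands, was found in 7 of 25 (28%), against 9.55% of all genes. The 7 included both receptor chains. Overlapping matches were allowed. The stretches below show the ISRE cores that lie wholly upstream of the start in members with a measured probe set. They are read 5′ to 3′ on the strand of the gene, with the matches in capitals, and are shown because the element, bound by ISGF3 and IRF proteins, was not used to choose the members. A match is a run of letters and not a measured binding site.
Ifit1 (chr19:34640775-34640823, plus strand): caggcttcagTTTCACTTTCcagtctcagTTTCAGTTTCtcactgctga
Ifit3 (chr19:34583363-34583426, plus strand): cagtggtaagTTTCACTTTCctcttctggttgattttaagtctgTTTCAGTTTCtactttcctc
Oas1a (chr5:120907526-120907555, minus strand): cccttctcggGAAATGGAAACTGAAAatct
Oas3 (chr5:120777715-120777744, minus strand): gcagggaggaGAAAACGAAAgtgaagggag
Rsad2 (chr12:26456553-26456582, minus strand): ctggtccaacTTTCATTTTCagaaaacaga
Bst2 (chr8:71537577-71537612, minus strand): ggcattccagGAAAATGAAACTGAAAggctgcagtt
Stat2 (chr10:128270266-128270295, plus strand): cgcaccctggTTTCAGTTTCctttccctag
Trim30a (chr7:104465210-104465239, minus strand): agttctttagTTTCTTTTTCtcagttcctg

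Ifit1 and Ifit3 each held a pair of cores, TTTCACTTTC followed downstream by TTTCAGTTTC. In Bst2 and Oas1a a pair of cores overlapped and shared bases. The core of Stat2 ended 212 bases before the annotated start, and the nearer core of Oas1a ended 4 bases before it. Ddx58 and Ifih1 had a core downstream of the start, and Isg15, whose signal was not used, had overlapping cores upstream.

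The comparison asked whether marrow from a UV-irradiated donor changed the interferon programme of dendritic cells grown later. None of the tested interferon response genes passed the test for a difference between the groups. Of the 32 with a probe set, 28 were tested, and limma, with Benjamini-Hochberg adjustment over all 13956 tested genes, called 0 of them at an adjusted p under 0.05, where 0.172% of all tested genes were called higher and 0% lower. Before adjustment, at a p under 0.05, 3 members were higher (10.7%) and 0 lower, against 9.6% and 5.49% of all tested genes. The 95% interval of each of the 28 differences lay within 1.5-fold in either direction, and 16 of the 28 lay within 1.2-fold. Of all 13956 tested genes, 10200 lay within 1.2-fold, while 362 had an upper limit beyond 1.5-fold and 47 a lower limit beyond it. Members of the list were higher in value in the UV-donor group in 16 cases and lower in 12. With array medians centred on a common value, which moves every difference upward alike, the split was 19 to 9, and with quantile normalization 14 to 14. The median log2 difference of the members, UV-donor minus naive-donor, was 0.016, and that of all tested genes was 0.0016.

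**Figure D1:**
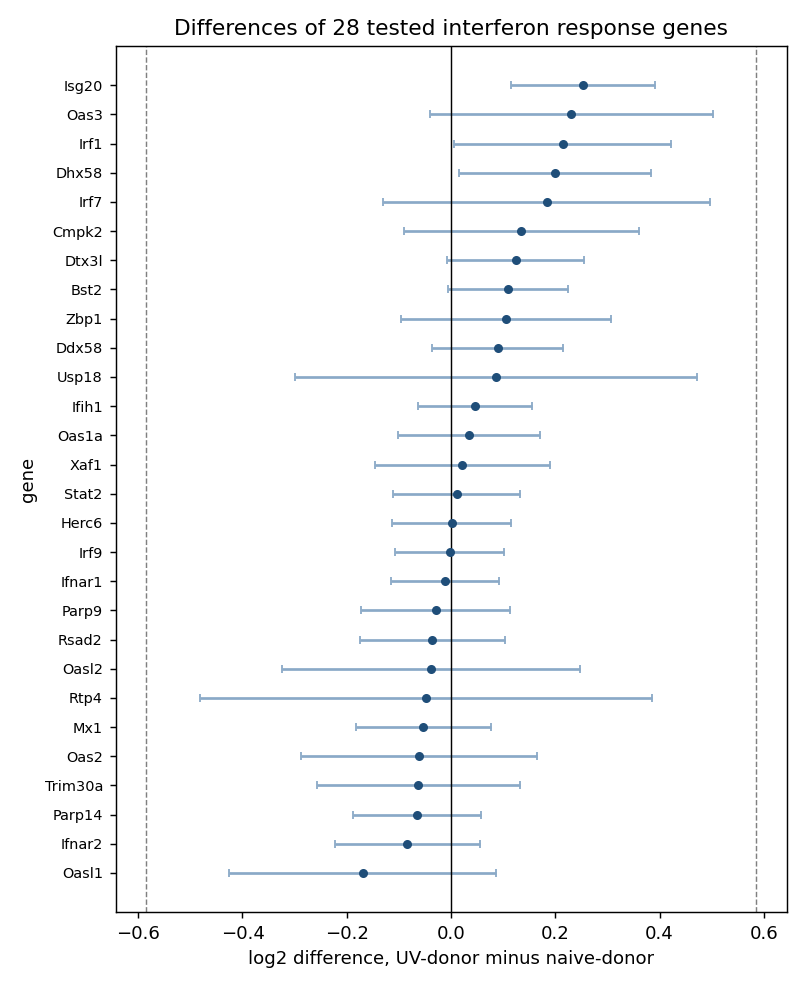
Log2 difference (UV-donor minus naive-donor) of the 28 tested interferon response genes, as points with 95% limma intervals, ordered by size; dashed lines mark 1.5-fold in each direction. No interval reaches a dashed line, and the points run from -0.17 (Oasl1) to 0.25 (Isg20).

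The mean log2 signal of the 32 measured members was 9.02, 9.07 and 8.92 on naive-donor replicates 1 to 3, and 9.13, 8.99 and 8.99 on UV-donor replicates 1 to 3. The group means were 9.003 ± 0.075 and 9.038 ± 0.081 (SD, n = 3 each), so the groups overlapped and their difference of 0.035 was smaller than either SD. UV-donor replicate 1 was the highest array and naive-donor replicate 3 the lowest.

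The receptor chains differed little between the groups. Ifnar1, the chain that recruits the kinase TYK2, had log2 signals of 10.81, 10.83 and 10.88 on the naive-donor arrays and 10.85, 10.82 and 10.82 on the UV-donor arrays. The groups overlapped, with a difference of -0.012 (95% interval -0.12 to 0.092), whose sign turned to 0.023 with centred medians. Ifnar2, the chain bound to JAK1, read 11.77, 11.69 and 11.65 against 11.53, 11.71 and 11.61. Its lowest value was on UV-donor replicate 1, the groups overlapped, and the difference was -0.084 (-0.22 to 0.055; limma adjusted p = 0.542).

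Measured factors of the ISGF3 complex had narrow intervals around 0. Stat2 differed by 0.010 (95% interval -0.11 to 0.13) and Irf9, its DNA-binding partner, by -0.0025 (-0.11 to 0.10). Array weights turned the value of Stat2 to -0.011, and centred medians turned that of Irf9 to 0.032.

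Irf7, the factor that amplifies interferon transcription and is itself induced by interferon, varied more than the groups differed. It read 8.45, 8.50 and 7.96 on the naive-donor arrays and 8.62, 8.40 and 8.45 on the UV-donor arrays. Naive-donor replicate 3 stood below the other 5 arrays, which overlapped. The difference of 0.18 (95% interval -0.13 to 0.50, limma adjusted p = 0.557) was 0.010 in the lowest case when single arrays were left out, namely without naive-donor replicate 3.

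Irf1, a factor induced by interferons and interferon gamma, had one of the 5 sets of non-overlapping groups. Its signals were 10.37, 9.98 and 10.25 in the naive-donor group and 10.44, 10.39 and 10.41 in the UV-donor group. The UV-donor arrays lay close together and just above the highest naive-donor array, while naive-donor replicate 2 was low. The difference of 0.21 (SE 0.091) had an unadjusted p of 0.046 and an adjusted p of 0.32 (limma), and was 0.10 without naive-donor replicate 2. A second, less bright probe set of Irf1 gave a difference of -0.026, so the probe sets disagreed. Non-overlapping groups with the UV-donor arrays above were seen in 5 of 28 members (17.9%), against 12.4% of all tested genes, and with the UV-donor arrays below in 0 members, against 9.37%. In either direction the background was 21.8%.

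The 4 RNA and nucleic acid sensors all had higher mean values in the UV-donor group, where 50.6% of all tested genes were higher, and none passed the test. With quantile normalization the 4 differences stayed above 0, that of Ifih1 at 0.0025. Ddx58 encodes RIG-I and Ifih1 encodes MDA5, the helicases that detect viral RNA in the cytosol, and Zbp1 senses nucleic acids in the left-handed Z form. Their differences were 0.089, 0.046 and 0.10, each with a 95% interval that included 0, and the groups did not overlap for Ddx58 (10.496, 10.622 and 10.595 against 10.631, 10.726 and 10.624), by a gap that is small beside the spread. Zbp1 differed by 0.028 without UV-donor replicate 1. Dhx58, which encodes LGP2, the helper of MDA5, had the largest difference of the sensors. It read 9.01, 9.22 and 9.08 on the naive-donor arrays and 9.45, 9.26 and 9.20 on the UV-donor arrays. The groups overlapped by the lowest UV-donor array, and UV-donor replicate 1 was well above the rest. The difference was 0.20 (SE 0.080, 95% interval 0.015 to 0.38, limma unadjusted p = 0.0374, adjusted p = 0.299), and 0.12 without UV-donor replicate 1.

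Usp18, which strips ISG15 from proteins and damps the receptor, was among the genes that varied most between arrays of one group. Its log2 signals were 11.15, 11.21 and 10.77 in the naive-donor group and 11.49, 10.87 and 11.02 in the UV-donor group. The highest and second lowest values both lay in the UV-donor group, and the difference of 0.086 (95% interval -0.30 to 0.47) turned to -0.097 without UV-donor replicate 1. Herc6, the mouse ligase that attaches ISG15, differed by 0.0015 (95% interval -0.11 to 0.12), a sign that turned to -0.034 with quantile normalization.

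Genes whose proteins bind or cut RNA were split. The IFIT proteins, which hold foreign RNA lacking the host cap marks, were dim on these arrays: Ifit1, Ifit2 and Ifit3 had group means between 5.75 and 6.45 and differences of -0.022, 0.042 and 0.041. They were not tested, and their groups overlapped. Among the OAS enzymes, which make the 2-5A messenger that activates RNase L, Oas3 differed by 0.23, Oas1a by 0.034 and Oas2 by -0.061, with the sign of Oas1a turning with quantile normalization.

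Oas3 read 8.36, 8.55 and 8.09 on the naive-donor arrays against 8.73, 8.52 and 8.44 on the UV-donor arrays. As with Irf7, naive-donor replicate 3 was lowest and UV-donor replicate 1 highest, and the other 4 arrays were mixed (limma adjusted p = 0.393). Its difference was 0.11 without naive-donor replicate 3 and 0.15 without UV-donor replicate 1. The OAS-like genes Oasl1 and Oasl2, which bind RNA without making 2-5A in the case of Oasl1, had differences of -0.17 and -0.039, with naive-donor replicate 2 the highest array for both. Without that array Oasl1 differed by -0.058.

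Isg20, a 3′ to 5′ RNA exonuclease, had the largest difference and the smallest p of the list. Its log2 signals were 9.31, 9.36 and 9.26 in the naive-donor group and 9.49, 9.67 and 9.53 in the UV-donor group. All UV-donor arrays lay above all naive-donor arrays, and Isg20 was the 1 member of 28 whose difference was larger than the range within either group. The means were 9.31 ± 0.052 and 9.56 ± 0.093 (SD, n = 3 each), a ratio of 1.19 with a 95% interval from 1.08-fold to 1.31-fold. It did not pass (SE 0.060, limma unadjusted p = 0.00285, adjusted p = 0.149). With single arrays left out its difference ran from 0.20 to 0.29 and its limma adjusted p from 0.158 to 0.408. With centred array medians the difference was 0.29 and the limma adjusted p 0.0985, the smallest of any member under any alternative.

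The GTPases and other antiviral effectors had small differences. The dynamin-like GTPase Mx1 differed by -0.054, and Mx2 was dim and differed by -0.13. Rsad2 (viperin), which makes a chain-terminating nucleotide, differed by -0.036, and its neighbouring kinase gene Cmpk2 by 0.14, or 0.033 without naive-donor replicate 3. Xaf1, a promoter of cell death, differed by 0.021, and Trim30a, a ligase that restrains inflammatory signalling, by -0.063. None of these was called, and each 95% interval of the tested genes included 0.

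Bst2 (tetherin), which holds budding virus at the cell surface, had groups that did not overlap. It read 9.05, 9.17 and 9.16 in the naive-donor group and 9.25, 9.25 and 9.21 in the UV-donor group, where the UV-donor arrays were within 0.037 of each other. The difference of 0.11 corresponded to 1.08-fold (limma adjusted p = 0.355), and the difference was 0.071 without naive-donor replicate 1. Bst2 is also a marker of plasmacytoid dendritic cells, the specialised interferon producers. Of 7 tested markers of that cell type 3 were higher and 4 lower in value, the mean over the 8 measured markers ran from 7.73 to 7.81 in the naive-donor group and from 7.74 to 7.76 in the UV-donor group, and the defining marker Siglech lay between 6.73 and 6.92 on all arrays, just above the dim limit. The markers differed in direction. Groups did not overlap for 5 of the 7, against 21.8% of all tested genes in either direction. The transcription factor genes Spib (0.31) and Tcf4 (0.28) and Bst2 lay above and Cox6a2 (-0.70) and Siglech (-0.091) below in the UV-donor group. Limma unadjusted p-values of Spib, Cox6a2 and Tcf4 were 0.00337, 0.0074 and 0.0178, and none was called. The part of such cells in the Bst2 values was not tested. In bulk RNA, fewer cells of a type and less RNA per cell cannot be told apart.

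Rtp4, a receptor chaperone that blocks RNA virus replication, had the largest residual SD around the group means of the tested members. Its log2 signals were 6.88, 7.47 and 6.89 in the naive-donor group and 7.36, 6.76 and 6.96 in the UV-donor group. A high array occurred in each group, naive-donor replicate 2 and UV-donor replicate 1, and the difference of -0.048 had an interval from -0.48 to 0.39.

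The last set pairs the ligase Dtx3l with its partner Parp9, which together modify histones and viral proteins, and includes Parp14, a mono-ADP-ribosyl transferase. Dtx3l read 11.01, 10.997 and 10.98 on the naive-donor arrays and 11.22, 11.04 and 11.09 on the UV-donor arrays. The naive-donor arrays were tightly grouped and all below the UV-donor arrays, with UV-donor replicate 1 highest. The difference was 0.12 (SE 0.057, limma adjusted p = 0.351), and 0.071 without UV-donor replicate 1, while Parp9 differed by -0.029, turning to 0.0051 with centred medians, and Parp14 by -0.066.

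**Figure D2:**
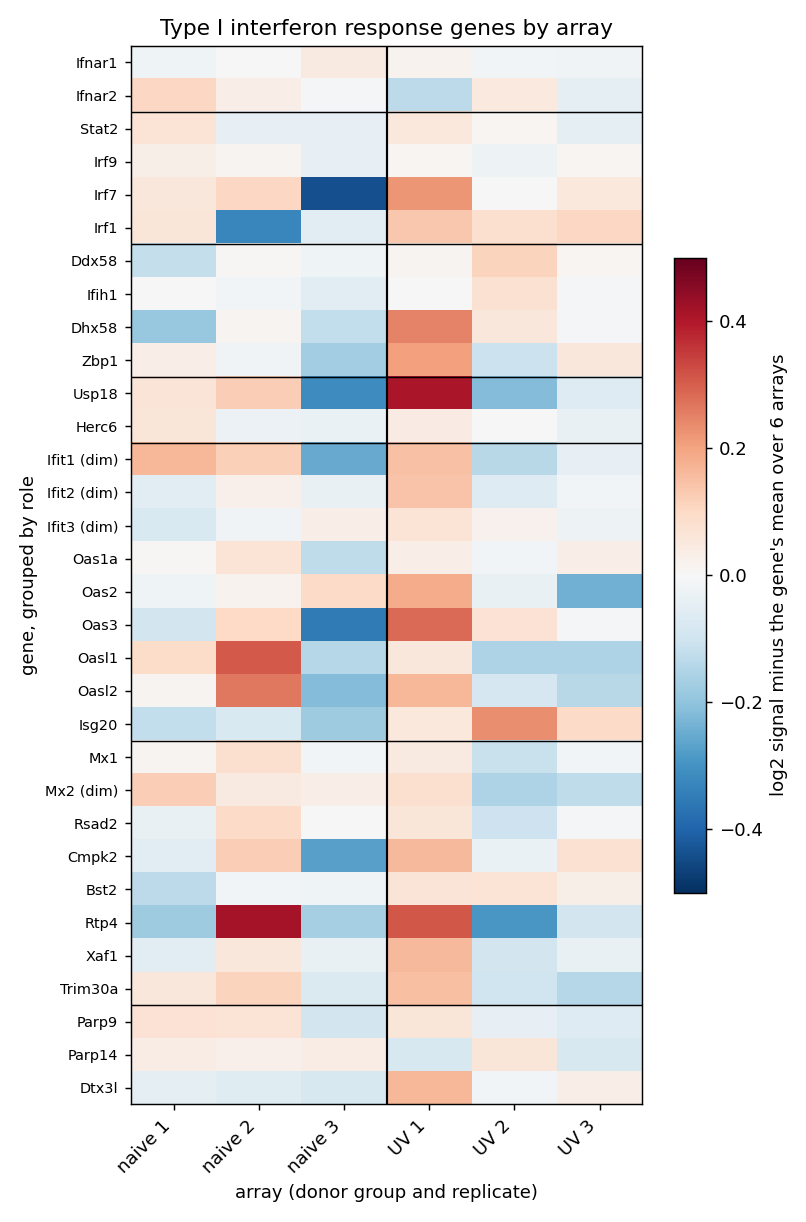
Log2 signal of each of the 32 measured interferon response genes on each array, minus the gene's own mean over the 6 arrays (colour scale in log2 units), with genes grouped by role and dim genes marked. The naive-donor replicate 3 column is mostly blue and the UV-donor replicate 1 column mostly red, with Irf7, Usp18, Oas3 and Rtp4 showing the strongest colours.

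Highest and lowest values fell on particular arrays for many members. UV-donor replicate 1 held the highest value of 11 of the 28 tested members (39.3%), against 21.9% of all tested genes. Naive-donor replicate 3 held the lowest value of 12 members (42.9%), against 22.3% of all tested genes. Naive-donor replicate 2 was highest for 6 members (21.4%, against 10.8% of all tested genes) and lowest for 1 (3.57%, against 10.7%). The replicate 1 array of that group was highest for 5 (17.9%, against 18.9%), and UV-donor replicate 3 was highest for 0, against 11.9%. The larger of the ranges within a group exceeded the size of the difference between groups in 27 of 28 members. The same share over all tested genes was not computed, so whether this count is particular to the members is not known.

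The members with the widest spread around their group means were Rtp4, Usp18, Irf7 and Oasl2, with residual SDs of 0.32, 0.29, 0.23 and 0.21, chosen here after their values were seen. The median residual SD was 0.078 for the tested members and 0.073 for all tested genes. The receptor chain Ifnar1 and the factor Irf9 lay at 0.028 and 0.030. After centring each gene on its mean, the 28 tested members averaged -0.011, 0.052 and -0.10 on the naive-donor arrays and 0.11, -0.022 and -0.025 on the UV-donor arrays. The mean of all tested genes ran from -0.019 to 0.010. A mean over fewer genes varies more, so these ranges are not compared.

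**Figure D3:**
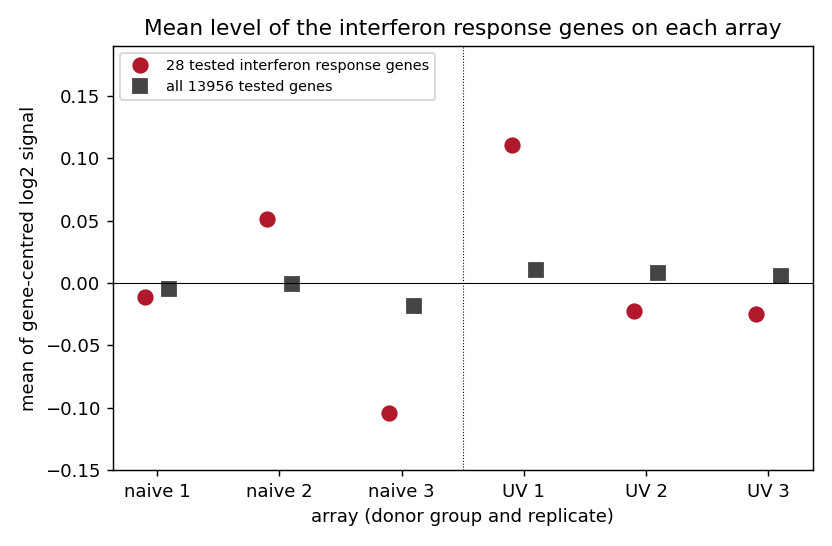
Mean over genes of the log2 signal centred on each gene's mean, for each of the 6 arrays; circles are the 28 tested interferon response genes and squares all 13956 tested genes. The circles span -0.10 (naive-donor replicate 3) to 0.11 (UV-donor replicate 1), and the circles of the groups overlap.

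Markers of other myeloid cells also varied. The mean over 6 monocyte markers was 10.00, 10.08 and 9.83 on the naive-donor arrays and 10.26, 10.14 and 10.06 on the UV-donor arrays, lowest and highest on the same arrays as the members. That order rested in part on Ms4a6c, which went from 6.53 on naive-donor replicate 3 to 8.77 on UV-donor replicate 1. Without it the other 5 markers averaged between 10.49 and 10.53 in the naive-donor group and between 10.51 and 10.63 in the UV-donor group, lowest on naive-donor replicate 3 but highest on UV-donor replicate 2. Of the 6 markers 2 were higher and 4 lower in value, and Fn1, at -0.092, was lowest on UV-donor replicate 1.

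The mean of 12 neutrophil markers ran from 8.39 to 8.56 in the naive-donor group and from 8.80 to 8.93 in the UV-donor group. Groups did not overlap for 8 of these markers (66.7%), all with UV-donor arrays above, against 12.4% of all tested genes. Csf3r, Mpo, Elane and Camp overlapped, with Elane and Camp at -0.035 and -0.019. Of the 12 neutrophil markers 2 were called higher, where 0.172% of all tested genes were called higher. The mean of 10 macrophage markers ran from 9.60 to 9.67 against 9.71 to 9.77. The complement gene C1qb was called higher (0.63, limma adjusted p = 0.0199), while Adgre1 differed by 0.51 and Cd5l by -0.996 without passing (limma adjusted p = 0.0627 each). Of 9 tested dendritic cell markers 1 was also called higher, with 7 higher and 2 lower in value. The mean of 5 measured eosinophil markers, 3 of them dim, ran from 6.87 to 7.02 against 7.16 to 7.20. The part of any of these cell types in the values of the interferon response genes was not tested.

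Other genes of the pathway were read from lists, and none of their genes was called. Of 18 interferon genes, 14 had a probe set and 8 of those were dim, Ifnb1 among them at 5.90 to 6.15. Of the 6 tested, 2 were higher and 4 lower in value, and 2 were lower at an unadjusted p under 0.05 (33.3%), against 5.49% of all tested genes. Ifna2, one of the interferon alphas, read 7.13, 7.04 and 7.16 in the naive-donor group and 6.85, 6.89 and 6.84 in the UV-donor group, with no overlap and a difference of -0.25 (limma adjusted p = 0.116). Ifnz, a mouse interferon zeta, and Ifna5 differed by -0.18 and -0.16. The interferon alpha genes are close copies of each other, and cross-hybridisation of their probe sets, or those of the Ifit, Oas, Mx and Slfn families, was not examined.

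Of 13 tested genes of receptor signalling and feedback, 10 had higher and 3 lower values, a share of 76.9% higher against 50.6% of all tested genes. Of the 13, 2 were higher with p below 0.05 before adjustment (15.4%, against 9.6% of all tested genes). These were Ptpn6, the phosphatase SHP-1, at 0.17 and Socs1, the inhibitor of Janus kinases, at 0.13, with limma adjusted p-values of 0.221 and 0.267. Tyk2, the kinase held by IFNAR1, differed by 0.18 with its highest values on UV-donor replicates 1 and 3.

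The 14 tested genes for sensing and inducing interferon had 12 higher values (85.7%, against 50.6% of all tested genes), 1 of them (7.14%) at an unadjusted p under 0.05, against 9.6% of all tested genes. This was Irf5, a factor downstream of Toll-like receptors, at 0.11 (limma adjusted p = 0.33). Tlr9, the receptor for DNA in endosomes, differed by 0.19 and the adaptor Ticam1 by 0.10.

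Beyond the members, 50 further interferon-stimulated genes were tested, of which 29 were higher and 21 lower in value. At an unadjusted p under 0.05, 11 were higher (22%) and 1 lower, against 9.6% and 5.49% of all tested genes, and 0 were called. The leading gene was Slfn1, a schlafen protein tied to growth arrest of T cells, which read 9.22, 9.15 and 8.89 in the naive-donor group and 9.44, 9.60 and 9.54 in the UV-donor group. The groups did not overlap and the difference was 0.44 (SE 0.087, limma adjusted p = 0.114).

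Samd9l, an antiviral protein that restrains growth of myeloid cells, read 6.17, 6.65 and 6.22 against 7.31, 6.80 and 6.93. All UV-donor arrays were higher, UV-donor replicate 1 most of all, and the difference was 0.67, or 1.59-fold (limma adjusted p = 0.149). Its naive-donor mean of 6.35 lay below the dim limit of 6.58. Samd9l was therefore tested only because of its UV-donor values, which limits what its p-value can show. Slfn9 differed by 0.40 (adjusted p = 0.193). Among 53 genes of this list with promoter windows, 27 (50.9%) held the ISRE core, against 3.99% of all genes. The GAS core lay in 6 (11.3%), close to the 9.55% of all genes, so its higher share among the members was not seen here.

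In the list of interferon gamma response genes, 10 of 16 tested genes were higher in value, and at an unadjusted p of 0.05 it held 3 upward (18.8%) and 1 downward (6.25%), against 9.6% and 5.49% of all tested genes. Ciita, the switch for MHC class II genes, read 9.72, 9.60 and 9.72 in the naive-donor group and 10.42, 10.07 and 10.01 in the UV-donor group. The groups were apart, with a difference of 0.49 (limma adjusted p = 0.126). The immunoproteasome subunit Psmb9 differed by 0.15 (limma adjusted p = 0.219). The third upward gene was Socs1, at 0.13, which is also on the list of receptor signalling and feedback and was counted there too. Differences of the 16 genes ran from -0.25 to 0.49.

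**Figure D4:**
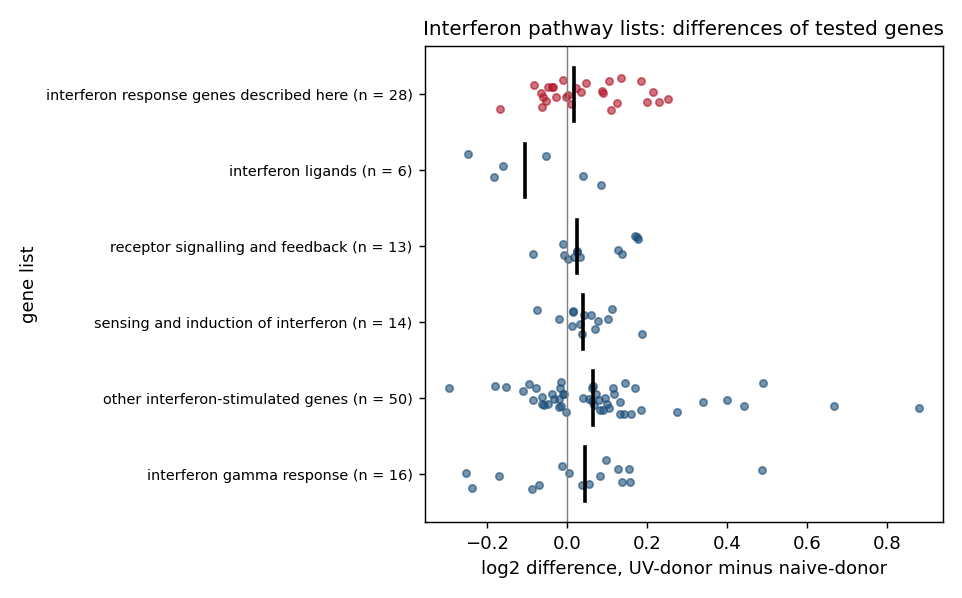
Log2 difference (UV-donor minus naive-donor) of each tested gene in the interferon response genes described here and in 5 further pathway lists; points are genes, spread vertically for visibility, and bars are list medians. The medians run from -0.11 (ligands) to 0.064 (other interferon-stimulated genes), and the members stay between -0.17 and 0.25.

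Members with and without the promoter element overlapped in their differences. Of 20 tested members with a promoter window, the 8 with an ISRE core had a median log2 difference of 0.040 and ran from -0.063 to 0.23. The 12 without one had a median of 0.011 and ran from -0.17 to 0.25. The non-overlapping members fell on both sides, with a core in Bst2 and Ddx58 and none found in the windows of Irf1, Isg20 and Dtx3l.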

How the data were processed

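RNA of 6 preparations was measured on arrays. The deposited values are log2 signals, judged from their range. The submitters' processing notes name oligo, RMA and limma, with no versions, and the authors' summary level is not given in the sources used here. RMA equalises probe quantiles, which narrows differences between arrays. No batch information was at hand.

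Values were used as deposited. Of 35556 probe sets, 21789 had 1 gene symbol in the platform annotation, 1621 several and 12146 were not listed. Per gene the probe set with the highest mean was used. Genes below the 30th percentile were left out, leaving 13956. The comparison used lmFit and eBayes of limma 3.58.1 under R 4.3.3 (two-sided, Benjamini-Hochberg over all tested genes, calls at an adjusted p under 0.05). An exact permutation test of 3 against 3 cannot go below 0.1. The number of arrays limits the precision.

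The members and lists were chosen with earlier results of these data known. All members are named. Values for every array are given for both receptor chains, Irf7 and the 6 members of smallest p, and for each pathway list up to 3 genes of smallest p are named. Isg15 was to be given in full but had no probe set of its own symbol. Values for Ddx58, Usp18, Rtp4 and the markers were added after they were seen. Replicate numbers are shared by the groups, but deviations of same-numbered arrays correlated at -0.135, -0.224 and 0.148, so they were not treated as pairs. Alternatives were other filters on dim genes, centred medians, quantile normalization, array weights, a robust prior with an intensity trend, averaged probe sets per gene, the replicate block and leaving out each array.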

Additional observations from a re-analysis of the deposited data

How the results depend on the processing

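The count of 0 called members held under each alternative, as did the counts of 0 called genes in the 5 pathway lists. With the replicate block 0 members were called, but so were 0 of all 13956 genes, and without single arrays the calls over all genes numbered 1 to 32, so some of these fits say little about the members. At an unadjusted p under 0.05, 3 members passed (limma), 5 with centred medians, 1 with quantile normalization, 2 with averaged probe sets and 1 to 4 with single arrays left out. The smallest limma adjusted p of any member was 0.149. It was 0.0985 with centred medians, 0.228 with the replicate block, 0.229 with quantile normalization and up to 0.406 without naive-donor replicate 1. Members higher in value numbered 12 with array weights, 14 with quantile normalization, 19 with centred medians and 12 to 19 with single arrays left out. The median difference ran from -0.016 to 0.066 with single arrays left out. The sign of some differences turned. With centred medians Ifnar1 was 0.023, Irf9 0.032 and Parp9 0.0051. With quantile normalization Herc6 was -0.034 and Oas1a -0.0053. With array weights Stat2 was -0.011, Usp18 -0.014, Herc6 -0.014 and Xaf1 -0.0088. Centring medians adds the same value to every difference, and the median over all tested genes rose from 0.0016 to 0.036. The turns with centred medians follow from that shift. The cause of the other turns was not tested. With single arrays left out, signs turned within these ranges: Ifnar1 -0.026 to 0.0070, Stat2 -0.014 to 0.047, Irf9 -0.023 to 0.012, Usp18 -0.097 to 0.22, Herc6 -0.018 to 0.032, Oas1a -0.021 to 0.077, Oas2 -0.17 to 0.043, Oasl2 -0.16 to 0.083, Rsad2 -0.074 to 0.0079, Rtp4 -0.22 to 0.15 and Xaf1 -0.055 to 0.073. The other 17 tested members kept their sign there, but 27 of 28 differences moved by over 1.5 times or turned without some single array. The share of all tested genes that moved so was not computed. The 4 dim members had values close to the dim limit or below it, where signal over background limits what can be read.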
